A study of Mus musculus with 11 samples.

Results

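The genes described here are 7 GABA-A receptor subunit genes, Gabra2, Gabra4, Gabra5, Gabrb1, Gabrb2, Gabrg1 and Gabrd. They were taken by gene symbol from the gene tables, which hold 19 GABA-A receptor subunit genes among 24391 genes in the heterozygous round of sequencing and 24015 genes in the homozygous round. GABA-A receptors are chloride channels opened by GABA, the main inhibitory transmitter of the mature forebrain, and each is built of several subunits around a central pore. GABA binds between alpha and beta subunits, and benzodiazepines bind between certain alpha subunits and a gamma subunit. In hippocampus the alpha5 subunit is known from pyramidal cells, while delta is known to join alpha4 in receptors outside the synapse in dentate granule cells, thalamus and striatum.

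The study deleted the non-coding 1b region of Scn1a, the gene of the sodium channel NaV1.1, with Cas9 in C57BL/6N mice and sequenced hippocampal RNA. The homozygous round compared 2 WT mice (both female) with 2 1b-/- mice (1 male, 1 female), in which both alleles carry the deletion, with single-end reads. The heterozygous round compared 3 WT mice (all male) with 4 1b+/- mice (3 male, 1 female), in which 1 allele carries it, with paired-end reads. All 11 mice were at postnatal day 32 by the study's methods and adult by the sample labels, and all came from a single deletion line. Since the deletion is in every cell and the tissue is bulk hippocampus, fewer cells of a type and less RNA per cell cannot be told apart in any value below.

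To show what separates the members at the level of the gene, a stretch of coding sequence was read from the mm9 genome for each. In the alpha subunits it covers the loop at the benzodiazepine site, and the capitals mark the codon known as the switch of diazepam binding, which codes for histidine in Gabra2 and Gabra5 and for arginine in Gabra4. Receptors with the arginine are known to be insensitive to diazepam. The 3 stretches lie on the minus strand, each within 1 coding exon, at chr5:71405732-71405758, chr5:72032379-72032405 and chr7:64744249-64744275.
Gabra2: gataccttctttCACaatgggaaaaag
Gabra4: gatactttcttcAGGaatggaaagaaa
Gabra5: gacacgttcttcCACaacggcaagaag

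A corresponding stretch of 27 bases, alike but not identical, was read from each of the 7 members in the segment that lines the chloride pore. It is shown to make clear how alike the genes are where the channel is most conserved, with no letter capitalised. Between any 2 members it differs at 4 to 9 of the 27 bases over 21 pairs. It lies at chr5:71364835-71364861 in Gabra2, chr5:72015322-72015348 in Gabra4, chr7:64669136-64669162 in Gabra5, chr5:72513193-72513219 in Gabrb1, chr11:42411048-42411074 in Gabrb2, chr5:71165690-71165716 in Gabrg1 and chr4:154760224-154760250 in Gabrd. Gabrb1 and Gabrb2 are on the plus strand and the others on the minus strand.
Gabra2: acaactgttctaacaatgacaaccttg
Gabra4: accacagtcctcacgatgaccacccta
Gabra5: accacagtgctgaccatgacaacactc
Gabrb1: actacggtgctgaccatgaccaccatc
Gabrb2: acaactgtcctaacaatgaccacaatc
Gabrg1: actacggttttgactatgacaaccctc
Gabrd: accactgtgctgacaatgaccacgctc

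No stretch of 50 bases was shared between the protein-coding transcripts of a member and those of any other of the 19 subunit genes. Over these 105 pairs 27 bases was the longest shared stretch, and pairs without a member were not compared. In mm9, 4 members lie within 1 cluster on chromosome 5. Gabrg1 lies at chr5:71142286-71233856, Gabra2 at chr5:71352296-71487088, Gabra4 at chr5:71960973-72049547 and Gabrb1 at chr5:72091171-72529628, and Gabra4 and Gabrb1 point away from each other with their starts 41624 bases apart. Gabra5 (chr7:64663060-64765379) neighbours Gabrg3, Gabrb2 (chr11:42233259-42446092) neighbours Gabra6, and Gabrd (chr4:154759089-154772221) has no other subunit gene within 1000000 bases. Gabra5 overlaps the annotated gene Gm9962, and Gabrb1 overlaps Gm15616 and Gm15617, so their counts are uncertain because the strand setting of the counting is not given in the sources used here.

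Library totals ran from 20667122 to 36145161 counts, and the smallest member count in any library was 233. CPM below are counts relative to library size after scaling by TMM factors (edgeR's correction for library composition), within a round unless both rounds are set side by side. Scn1a, the targeted gene, was checked first. In the homozygous round it stood at 134 and 173 CPM in the WT libraries and at 26.3 and 16.7 CPM in 1b-/-. In the heterozygous round it stood at 171, 113 and 123 CPM in WT and at 91.2, 83.4, 96.7 and 119 CPM in 1b+/-, so that 1b+/- replicate 4 lay above WT replicate 2. Scn1a was 7.12-fold lower in 1b-/- (edgeR quasi-likelihood test, Benjamini-Hochberg adjusted p = 0.0211) and 6.61-fold lower against the heterozygous-round WT libraries (edgeR adjusted p = 1.66e-05). Its 1.39-fold lower level in 1b+/- had an unadjusted p of 0.0122 and did not pass (edgeR quasi-likelihood test, adjusted p = 0.303), in a comparison where 0 of 14630 genes did. The paper's own edgeR analysis reports Scn1a as significantly lower in 1b+/- at this age.

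Both homozygous-round WT libraries stood apart from the other 9 in markers of brain regions. With all 11 libraries scaled together, the summed level of 13 markers of striatal medium spiny neurons was 9414 and 4028 CPM in these WT libraries and between 464 and 729 CPM in the other 9. The summed level of 6 markers of hippocampal excitatory neurons was 3274 and 5020 CPM in them and between 5567 and 8436 CPM in the other 9, and that of 10 dentate granule cell markers was 220.0 and 257 CPM against 399 to 525 CPM. No marker of these 3 lists was at 0 in any group. These WT libraries are therefore labelled hippocampus but carry striatal markers above the level of the rest, where these markers come from was not tested, and the fold change of each member in 1b-/- is also given against the heterozygous-round WT libraries. That second comparison was chosen after the data were seen, and in it genotype, round and read type cannot be told apart.

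**Figure D1:**
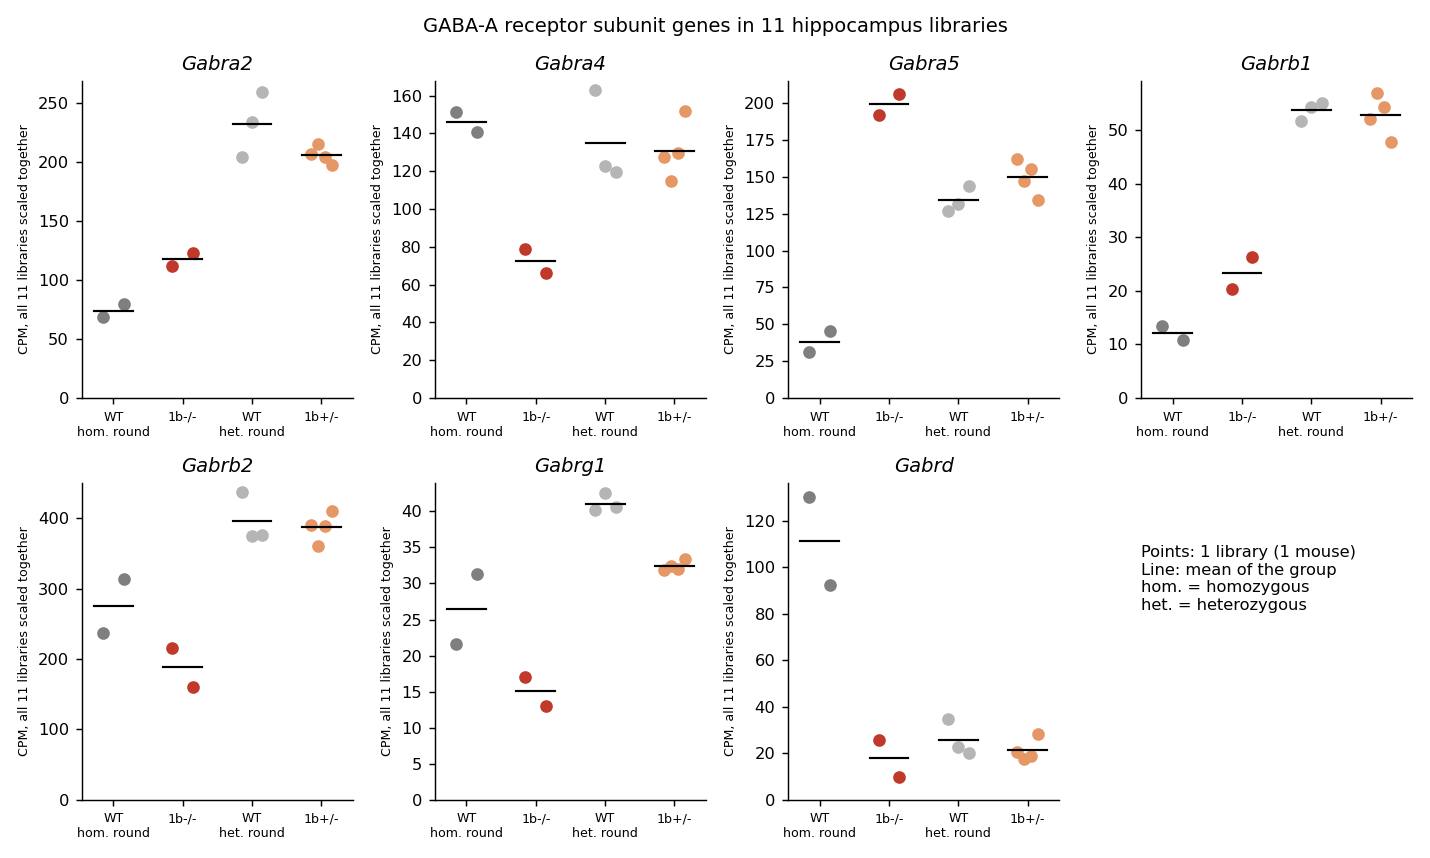
CPM of each of the 7 subunit genes (y axis, all 11 libraries scaled together) by genotype, for the homozygous round on the left and the heterozygous round on the right of each panel; points are libraries and lines are group means. The WT libraries of the 2 rounds lie apart in 6 of the 7 genes, and Gabrd is at 92.6 to 130.4 CPM in the homozygous-round WT libraries and at or under 34.6 CPM in the other 9.

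Levels of different genes were compared per kilobase of merged exon. In the heterozygous-round WT libraries the order was Gabra2 (94.8 CPM per kb ± 11.1), Gabra5 (49.2 ± 3.18), Gabrb2 (38.8 ± 3.48), Gabra4 (31.9 ± 5.71), Gabrb1 (16.9 ± 0.532), Gabrd (8.74 ± 2.60) and Gabrg1 (8.38 ± 0.252; SD, n = 3). The last pair did not differ beyond their spread. The 1b+/- libraries gave the same order, again with Gabrd and Gabrg1 within their spread of each other. In 1b-/- Gabra5 came first at 76.7 CPM per kb ± 4.62 (SD, n = 2) and Gabra2 second at 50.3 ± 3.87, and the pairs Gabrb2 and Gabra4, Gabrb1 and Gabrd, and Gabrd and Gabrg1 did not differ beyond their spread. The homozygous-round WT libraries had another order, led by Gabrd at 39.4 CPM per kb ± 9.55 and Gabra4 at 36.0 ± 2.005 (SD, n = 2), which did not differ beyond their spread and neither did Gabra2 and Gabrb2, with Gabrb1 last at 3.97 ± 0.626. The order depends on the length used, since per kilobase of coding sequence Gabrb2, whose exons span 9922 bases but hold 1536 coding bases, came first in 3 of the 4 groups and second in 1b-/-.

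In the heterozygous comparison no member passed an adjusted p of 0.05, and neither did any other gene (0 of 14630 tested, 0%; edgeR quasi-likelihood test). At an unadjusted p under 0.05 there were 3 of the 7 members, Gabra2 and Gabrg1 lower and Gabra5 higher, beside 11.3% of all genes (1649). A likelihood ratio test in edgeR and DESeq2 each called 1 member, Gabrg1, lower in 1b+/-, beside 1.31% and 1.67% of all genes (191 and 245). The groups did not overlap in 1 of 7 members, again Gabrg1, beside 10.9% of all genes.

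Gabrg1, a gamma subunit of low abundance in most of the brain, was the member whose 1b+/- libraries lay closest together relative to their mean. It stood at 39.1, 41.4 and 39.5 CPM in WT and at 31.0, 31.5, 31.2 and 32.6 CPM in 1b+/-. Every 1b+/- library was below every WT library. The difference was -0.34 on the log2 scale ± 0.043 (SE), or 1.27-fold lower, and its unadjusted p had rank 5 among all genes tested (edgeR quasi-likelihood test, Benjamini-Hochberg adjusted p = 0.0532). Over 15 alternatives it ran from -0.36 to -0.31, with the call unchanged in 11 and gained in 4. The adjusted p ran from 6.79e-05 with DESeq2 to 0.945 with edgeR fitted to all 11 libraries together.

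Gabra2, the alpha subunit typical of synapses on axon initial segments, stood at 199, 228 and 253 CPM in WT and at 202, 209.8, 199 and 192 CPM in 1b+/-. WT replicate 1 lay among the 1b+/- libraries, and the difference of -0.17 ± 0.071 on the log2 scale did not pass (edgeR adjusted p = 0.396). Without that WT library Gabra2 was at -0.26 and passed (edgeR adjusted p = 0.0382), beside 2.89% of all genes (421). Gabra5 stood at 124, 128 and 140.0 CPM in WT and at 158, 144, 151 and 131 CPM in 1b+/-, where the last library is the only female of the round. The groups overlapped and the difference was 0.16 ± 0.069 (edgeR adjusted p = 0.426).

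Gabra4, Gabrb2 and Gabrd shared a pattern among the libraries of this round, with the groups overlapping in all 3. Gabrd was at 33.7, 21.97 and 19.7 CPM in WT and at 20.05, 16.9, 18.5 and 27.8 CPM in 1b+/-. Gabra4 was at 159, 119.6 and 116 CPM in WT and at 124, 112, 126 and 148 CPM in 1b+/-. Gabrb2, a beta subunit of the most common receptors of the adult brain, was at 425, 365 and 366 CPM in WT and at 380.2, 351, 378 and 399 CPM in 1b+/-. WT replicate 1 and 1b+/- replicate 4 were highest for all 3 genes. Over the 7 libraries, which share a sequencing round, Pearson's r was 0.98 between Gabra4 and Gabrb2 and 0.94 between Gabra4 and Gabrd. The same 2 libraries had the highest summed level of 7 thalamus markers, 761 and 574 CPM with all libraries scaled together, against 228 to 391.5 CPM in the other 5, with no marker at 0 in either group. The part of these markers in the subunit levels was not tested. The differences between genotypes were -0.046 ± 0.120 for Gabra4, -0.031 ± 0.063 for Gabrb2 and -0.27 ± 0.208 for Gabrd on the log2 scale (edgeR adjusted p = 0.921, 0.893 and 0.666). Without WT replicate 1 the Gabrd difference was -0.0020 (edgeR adjusted p = 0.997).

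Gabrb1, the beta subunit next to Gabra4 on the chromosome, had libraries close together in both groups. It was at 50.4, 52.8 and 53.5 CPM in WT and at 50.6, 55.3, 52.9 and 46.6 CPM in 1b+/-. The groups overlapped, with a difference of -0.025 ± 0.060 on the log2 scale (edgeR adjusted p = 0.912). Over all 7 members the median difference was -0.046, beside 0.00073 over all genes tested.

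In the homozygous comparison 2 of the 7 members passed, beside 3.58% of 14838 genes tested (531; edgeR quasi-likelihood test, Benjamini-Hochberg adjusted p under 0.05). Gabra5 was higher in 1b-/-, as were 2.06% of all genes, and Gabra4 was lower, as were 1.52%. The groups did not overlap in any of the 7 members, but with 2 mice against 2 this held for 59.7% of all genes. All 7 members had an unadjusted p under 0.05, beside 26.4% of all genes. All of these counts use the WT libraries with striatal markers. Leaving out either one leaves a lone WT library that is assumed to vary like the 1b-/- pair. Without WT replicate 1 no member and no gene passed (0%, edgeR quasi-likelihood test; 3861 genes at an unadjusted p under 0.05), with Gabra5 at 2.14 and Gabra4 at -0.94 on the log2 scale. Without WT replicate 2 Gabra5 was the 1 member called, beside 192 of 14670 genes (1.31%). Against the heterozygous-round WT libraries 6 of the 7 passed, beside 58.4% of 14631 genes tested, 5 lower and 1 higher in 1b-/-.

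**Figure D2:**
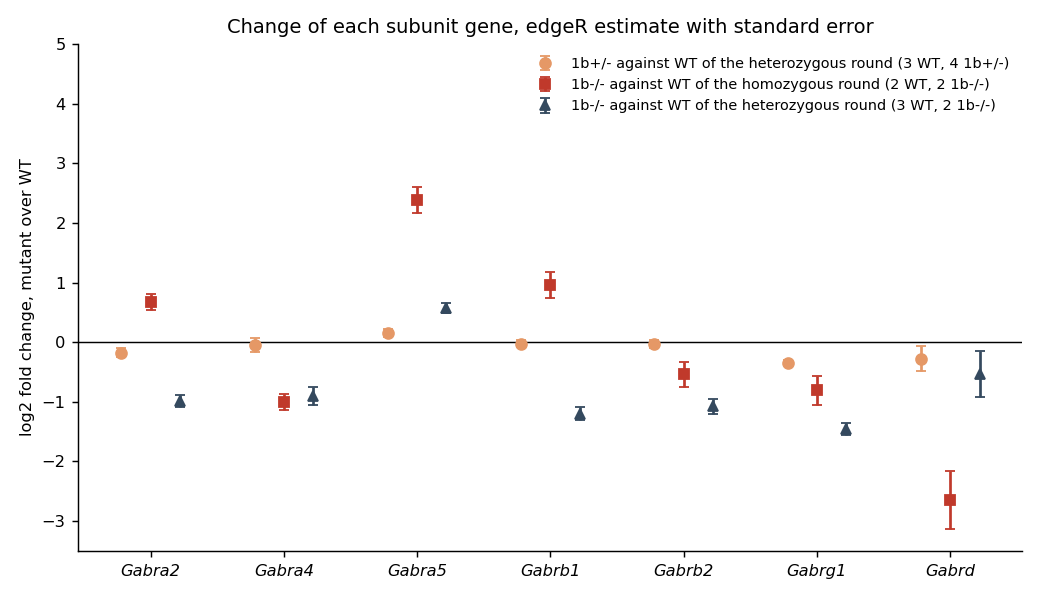
log2 fold change of each subunit gene (y axis) with its standard error in 3 comparisons, 1b+/- against WT of its round, 1b-/- against WT of its round and 1b-/- against WT of the heterozygous round. Gabra2 and Gabrb1 are above 0 against one set of WT libraries and below 0 against the other, while Gabra4, Gabrb2, Gabrg1 and Gabrd are below 0 and Gabra5 above 0 against both.

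Gabra5, the alpha subunit of pyramidal cell receptors outside the synapse, was at 31.4 and 46.3 CPM in the WT and at 195 and 212 CPM in the 1b-/- libraries of this round. Both 1b-/- libraries lay far above both WT libraries, and the fitted change was 2.39 ± 0.215 on the log2 scale, or 5.23-fold higher (edgeR quasi-likelihood test, Benjamini-Hochberg adjusted p = 0.0207). On the scale of all 11 libraries its mean was 38.3 CPM in these WT libraries, 134 CPM in the heterozygous-round WT libraries and 199 CPM in 1b-/-. Against the latter WT libraries it was 1.48-fold higher in 1b-/- (0.57 ± 0.083 on the log2 scale, edgeR adjusted p = 0.000289). Gabra5 was called higher in 1b-/- against both sets of WT libraries, with a smaller change against those of the heterozygous round.

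Gabra4, the alpha subunit that pairs with delta, was at 154 and 143 CPM in WT and at 80.0 and 67.8 CPM in 1b-/-. Both 1b-/- libraries lay below both WT libraries, with a change of -1.01 ± 0.135 on the log2 scale, or 2.01-fold lower (edgeR quasi-likelihood test, Benjamini-Hochberg adjusted p = 0.0313). It was the 1 member whose WT libraries overlapped between rounds, with means of 146 and 135 CPM on the scale of all 11. Against the heterozygous-round WT libraries it was 1.87-fold lower (-0.90 ± 0.157, edgeR adjusted p = 0.000834). Leaving out either WT library or 1b-/- replicate 2 took the adjusted p above 0.05 (edgeR adjusted p = 0.0705, 0.112 and 0.0851 without WT replicate 2, WT replicate 1 and 1b-/- replicate 2), with changes between -0.89 and -1.06.

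Gabrd, the delta subunit of receptors outside the synapse, had the largest fitted difference of the 7 and the widest spread. It was at 133 and 93.9 CPM in WT and at 26.3 and 9.97 CPM in 1b-/-. The groups did not overlap, and the change of -2.64 ± 0.484 on the log2 scale, or 6.25-fold lower, did not pass (edgeR quasi-likelihood test, Benjamini-Hochberg adjusted p = 0.0557). It was called lower in 7 of 13 alternatives, among them DESeq2 (adjusted p = 7.81e-09) and edgeR's likelihood ratio test (adjusted p = 8.12e-06), with adjusted p up to 0.256 in the others. Without 1b-/- replicate 1 the change was -3.51 and without 1b-/- replicate 2 it was -2.11. Both fits are among the 7, and each leaves a lone 1b-/- library, so the spread within 1b-/- drops out. A term for sex, also among the 7, is the same as omission of 1b-/- replicate 1, the only male of the round. On the scale of all 11 libraries its mean was 112 CPM in these WT libraries and 25.8 CPM in the heterozygous-round WT libraries, and against the latter the change was -0.54 ± 0.386 (edgeR adjusted p = 0.256). The WT libraries with the higher Gabrd level are those with the higher summed striatal markers. Of 13 such markers tested 10 were called lower in 1b-/- within the round, beside 1.52% of all genes. Against the heterozygous-round WT libraries 5 of 13 were called lower, where 58.4% of all genes were called in either direction. The part of these markers in the Gabrd result was not tested, and the Gabrd difference was smaller without these libraries.

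Gabra2 and Gabrb1 changed sign with the WT libraries used. Gabra2 was at 69.7 and 81.2 CPM in WT and at 114 and 127 CPM in 1b-/-, a difference of 0.67 ± 0.136 on the log2 scale that did not pass (edgeR adjusted p = 0.0645). Gabrb1 was at 13.6 and 10.9 CPM in WT and at 20.7 and 27.1 CPM in 1b-/-, a difference of 0.96 ± 0.215 (edgeR adjusted p = 0.0757). Both genes had 1b-/- libraries above both WT libraries of their round and below all heterozygous-round WT libraries. Against the heterozygous round WT, Gabra2 was 1.98-fold lower (-0.99 ± 0.093, edgeR adjusted p = 1.69e-05) and Gabrb1 2.30-fold lower in 1b-/- (-1.20 ± 0.109, edgeR adjusted p = 1.28e-05). On the scale of all 11 libraries the WT means of the homozygous and heterozygous rounds were 74.3 and 233 CPM for Gabra2 and 12.1 and 53.7 CPM for Gabrb1.

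Gabrb2 and Gabrg1 were lower in 1b-/- against either set of WT libraries, without passing within their round. Gabrb2 was at 241 and 317 CPM in WT and at 219 and 165 CPM in 1b-/- (-0.54 ± 0.209, edgeR adjusted p = 0.183). Gabrg1 was at 21.995 and 31.8 CPM in WT and at 17.3 and 13.4 CPM in 1b-/- (-0.81 ± 0.246, edgeR adjusted p = 0.123). The groups did not overlap in either gene. Against the heterozygous-round WT libraries Gabrb2 was 2.11-fold lower (edgeR adjusted p = 5.42e-05) and Gabrg1 2.74-fold lower (edgeR adjusted p = 2.74e-06). Gabrg1 thus had the 1b+/- and the 1b-/- libraries below every WT library of their own round. The groups did not overlap in 10.9% of all genes in the heterozygous and 59.7% in the homozygous comparison. Its changes were -0.34 in 1b+/- and -0.81 in 1b-/-, and neither passed within its round (edgeR quasi-likelihood test, adjusted p = 0.0532 and 0.123).

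Whether the change of a member differed between the genotypes was tested with 1 model over all 11 libraries, each genotype against the WT libraries of its round. The model gives the 2 rounds 1 shared spread, a common coefficient of variation between mice of 14.2%. Fitted alone, the homozygous round had 22.9% and the heterozygous round 9.13%. The p-values of this model can thus be too small for changes of the homozygous round. The difference passed for 5 of the 7 members, beside 27.3% of 14905 genes tested. The change in 1b-/- minus that in 1b+/- was 2.22 ± 0.193 on the log2 scale for Gabra5 (edgeR adjusted p = 0.00011), -2.37 ± 0.517 for Gabrd (edgeR adjusted p = 0.00795), 0.98 ± 0.170 for Gabrb1 (edgeR adjusted p = 0.00273), -0.97 ± 0.206 for Gabra4 (edgeR adjusted p = 0.00704) and 0.84 ± 0.140 for Gabra2 (edgeR adjusted p = 0.00228). For Gabrb2 and Gabrg1 it was -0.52 ± 0.195 and -0.47 ± 0.199 and did not pass (edgeR adjusted p = 0.0724 and 0.101). This test takes the homozygous round from the WT libraries with striatal markers and cannot be made without them.

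The make-up of the 7 transcripts, as each gene's share of their summed CPM per kb in a library, differed little within the heterozygous round. Gabra2 made up 38.1% ± 3.93 (SD, n = 3) in WT and 35.2% ± 1.49 (SD, n = 4) in 1b+/-, and Gabra5 19.8% ± 0.901 and 23.1% ± 1.66. The share of Gabrg1 was 3.32%, 3.57% and 3.23% in WT and 2.69%, 2.82%, 2.73% and 2.88% in 1b+/-. Gabrg1 and Gabra5 were the 2 shares whose groups did not overlap (two-sided exact permutation p = 0.0286 and 0.0571, both 0.2 after Benjamini-Hochberg adjustment over the 7 shares tested; 0.0286 is the smallest p that 35 splits allow).

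In the homozygous round the shares did not overlap between groups in any of the 7 members. With 2 mice against 2, the CPM of 59.7% of all genes did not overlap either, and no two-sided exact permutation p below 0.333 is possible. The shares of a library have a fixed total, so a rise in 1 lowers the rest and the 7 are not separate results. Gabra5 made up 7.50% and 10.9% in WT and 40.4% and 44.2% in 1b-/-, and Gabrd 29.3% and 20.3% in WT and 5.02% and 1.91% in 1b-/-. Gabra4 made up 23.7% and 21.5% in WT and 10.7% and 9.07% in 1b-/-. In the heterozygous-round WT libraries the Gabrd share ran from 2.68% to 4.73%, so the 1b-/- libraries lay on either side of that range and the WT libraries of their own round far above it. In the same libraries the Gabra5 share ran from 18.8% to 20.6% and the Gabra4 share from 11.01% to 15.5%, so both 1b-/- libraries lay above that range for Gabra5 and below it for Gabra4. Summed over the 7 genes the level per length was 158 and 161 CPM per kb in WT and 182 and 181 CPM per kb in 1b-/-, without overlap. The plain sum was 665 and 724 CPM in WT and 672 and 623 CPM in 1b-/-, with overlap.

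**Figure D3:**
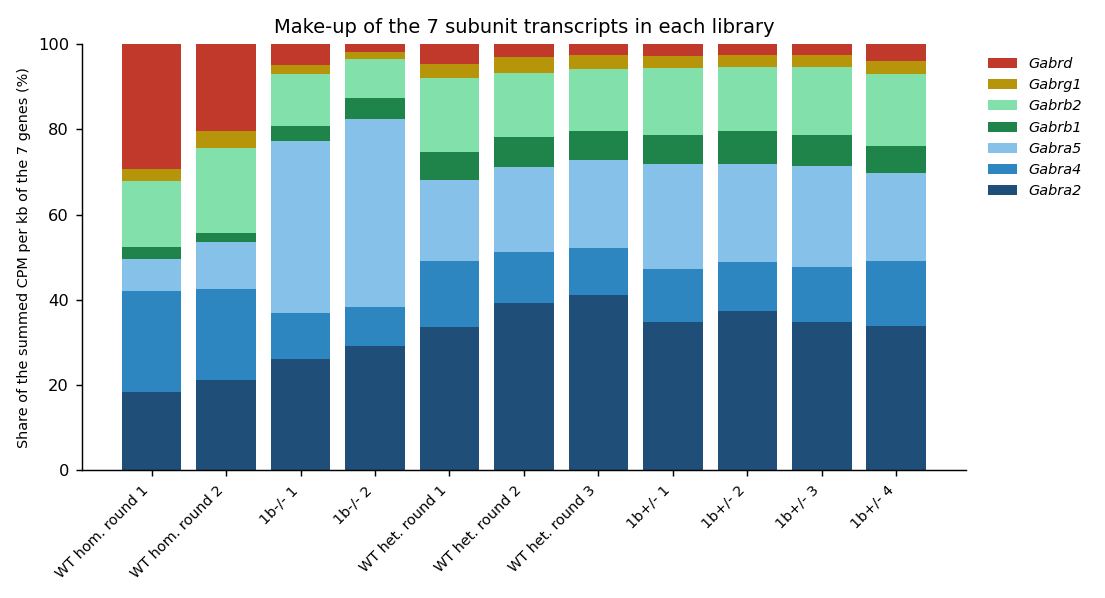
Share of each subunit gene in the summed CPM per kb of the 7 genes (y axis, %) in each of the 11 libraries. The 2 homozygous-round WT libraries have 20.3% to 29.3% Gabrd, the 2 1b-/- libraries have 40.4% to 44.2% Gabra5, and the 7 libraries of the heterozygous round share the order of their 5 most abundant genes.

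Among other subunit genes, Gabra6, Gabrp, Gabrr1, Gabrr2 and Gabrr3 stayed under 1 CPM in every library and were not tested. Gabra3, an alpha subunit encoded on the X chromosome, stood at 114, 129 and 135 CPM in WT and at 86.0, 98.5, 101 and 97.0 CPM in 1b+/-. Every 1b+/- library was below every WT library, but the difference of -0.40 ± 0.071 on the log2 scale did not pass (edgeR adjusted p = 0.0784). In 1b-/- Gabra3 overlapped WT, at 87.0 and 57.2 CPM against 77.5 and 165 CPM (edgeR adjusted p = 0.291). Gabrq, the theta subunit, was at 2.23, 4.07 and 5.78 CPM in WT and at 1.38, 0.954, 0.823 and 1.78 CPM in 1b+/-, again without overlap (-1.69 ± 0.350, edgeR adjusted p = 0.136). Gabre, the epsilon subunit, rests on 4 to 30 counts in the libraries of the heterozygous round, and its lower level in 1b+/- did not pass (-1.52 ± 0.442, edgeR adjusted p = 0.265). Gabrg3, a gamma subunit gene next to Gabra5 on chromosome 7, was at 3.61 and 3.35 CPM in 1b-/- and at 8.54 and 6.37 CPM in WT of the round (-1.10 ± 0.262, edgeR adjusted p = 0.0834). The adjoining genes Gabra5 and Gabrg3 thus lay on opposite sides of these WT libraries. Against the heterozygous-round WT libraries Gabra3, Gabrg3 and Gabrq were called lower in 1b-/- (edgeR adjusted p = 0.00112, 0.000656 and 0.00472), and Gabre was not (edgeR adjusted p = 0.849).

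Of 19 tested genes for assembly, anchoring and trafficking of the receptor none passed in either comparison (edgeR quasi-likelihood test). At an unadjusted p under 0.05 there were 4 in the heterozygous and 5 in the homozygous comparison, beside 11.3% and 26.4% of all genes. DESeq2 called 1 and 4, beside 245 of 14630 and 2144 of 14838 genes. The likelihood ratio test called 1 in each, beside 191 and 1829 genes. The smallest p in the heterozygous comparison was that of Hap1, a trafficking adaptor, at 146 CPM in 1b+/- and 276 CPM in WT (-0.92 ± 0.160, edgeR adjusted p = 0.0777). In the homozygous comparison Hap1 was on the other side, at 148 CPM in 1b-/- and 106 CPM in WT (0.47 ± 0.125, edgeR adjusted p = 0.0983), and against the heterozygous-round WT libraries it was at -0.97 (edgeR adjusted p = 0.00204). The smallest p in the homozygous comparison was that of Nsf, a membrane fusion ATPase that binds the receptor, at 1368 CPM in 1b-/- and 704 CPM in WT (0.96 ± 0.187, edgeR adjusted p = 0.0606), and at 0.27 against the heterozygous-round WT libraries (edgeR adjusted p = 0.00221). In that second comparison 6 of the 19 were called lower and 6 higher, beside 58.4% of all 14631 genes tested called in either direction. Of 8 genes for GABA synthesis, loading, uptake and breakdown none passed in 1b+/-. At an unadjusted p under 0.05 there were 3, all lower, beside 11.3% of all genes. DESeq2 called 2 and the likelihood ratio test 1, beside 1.67% and 1.31% of all genes. In 1b-/- 1 was called lower within the round, beside 1.52% of all genes. This was Gad2, a GABA-making enzyme, at 164 CPM in 1b-/- and 335 CPM in WT (-1.03 ± 0.157, edgeR adjusted p = 0.0386), and at -0.52 against the heterozygous-round WT libraries (edgeR adjusted p = 0.00157). Striatal medium spiny neurons also make GABA, and the part of the striatal markers in the Gad2 result was not tested. Neither GABA-B receptor gene passed in either comparison (edgeR quasi-likelihood test). At an unadjusted p under 0.05 there were 0 and 1, and DESeq2 and the likelihood ratio test each called 0 and 1. The counts over all genes given above for each test stand beside these. The median log2 change of the members was -0.54 in the homozygous comparison, beside -0.0013 over all genes and -0.44 over the 8 genes of GABA synthesis and uptake.

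Regional markers were set beside the members across all 11 libraries as a description. The 2 libraries with the highest Gabrd level are the 2 with the highest summed striatal markers, and among the other 9 the striatal sum ran from 464 to 729 CPM while Gabrd ran from 9.68 to 34.6 CPM. For Gabra5 the 2 lowest libraries are the 2 with the lowest sum of excitatory neuron markers, and the 2 highest, both 1b-/-, are the 2 with the highest sum (8329 and 8436 CPM). Of the 6 excitatory neuron markers 3 were called higher in 1b-/- against the WT libraries of their round and 4 against those of the heterozygous round, where 2 others were called lower. Over all genes tested 3.58% were called in the first of these comparisons and 58.4% in the second. The CA1 and CA3 counts below have the same shares beside them. Pyramidal cells of CA1 and CA3 both express alpha5. Of 8 CA1 pyramidal cell markers 1 was called higher in 1b-/- within the round and 1 against the other WT libraries, and their summed level was 378 and 484 CPM in homozygous-round WT, 1166 and 791 CPM in 1b-/- and 771 to 923 CPM in the heterozygous round. Of 8 CA3 pyramidal cell markers 4 were called higher and 1 lower within the round, and 7 higher and 1 lower against the other WT libraries. The summed level of the CA3 markers was 195 and 201 CPM in homozygous-round WT, 527 and 748 CPM in 1b-/- and 370 to 460 CPM in the heterozygous round, with none at 0. The part of these markers in the Gabra5 result was not tested.

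**Figure D4:**
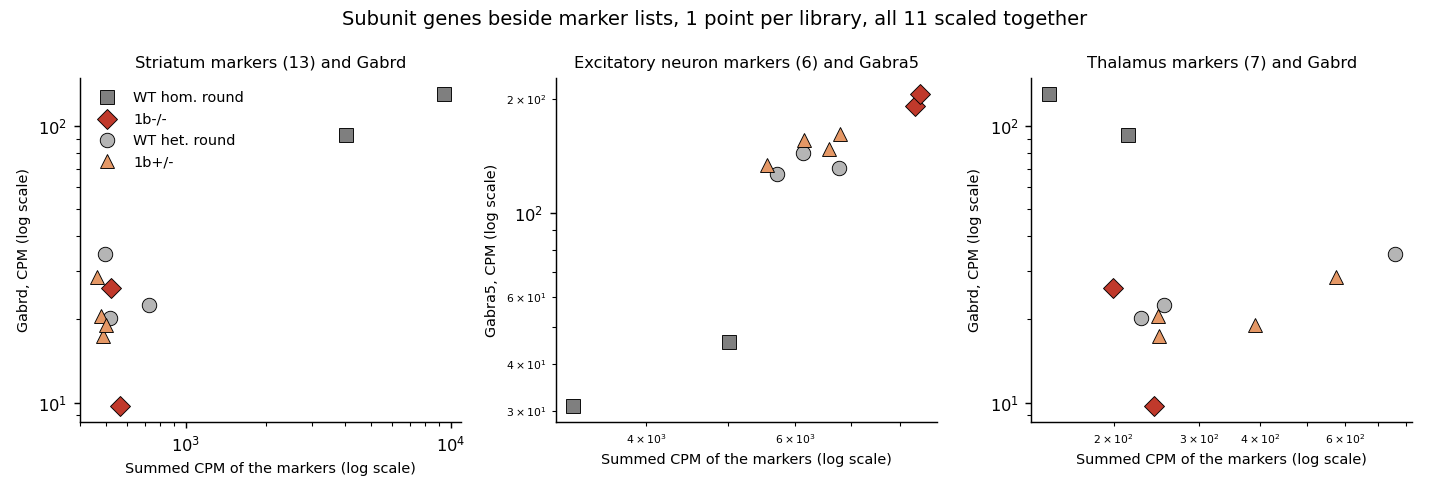
Level of Gabrd or Gabra5 (y axis, CPM, log scale) against the summed CPM of a marker list (x axis, log scale) with 1 point per library. The 2 homozygous-round WT libraries are alone at the right of the striatum panel and at the lower left of the excitatory neuron panel, and WT replicate 1 and 1b+/- replicate 4 of the heterozygous round are at the right of the thalamus panel.

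For each member the 2 genes with the most similar pattern were found among 13133 genes, by Pearson's r over the 11 libraries after the mean of each round was subtracted. These were Cabp7 and Sstr4 for Gabra5 (both r = 0.997), Cldn12 and Crebrf for Gabrd (0.99 and 0.99), Ttbk2 and Selt for Gabrb2 (0.99 and 0.98), and Snd1 and Supt6 for Gabrb1 (0.99 and 0.99). For the others they were Stard7 and Crhbp for Gabra2 (0.98 and 0.98), Thsd7a and Rcan2 for Gabra4 (0.98 and 0.98), and Dbpht2 and Rps24 for Gabrg1 (0.98 and 0.96). The homozygous round carries most of the spread behind these values, and over the 7 libraries of the heterozygous round alone r was 0.89 for both partners of Gabra5 and between 0.83 and 0.97 for the 14 pairs. These 7 libraries were among the 11 used to pick the partners, so this is not a separate check. Among the members themselves r over the 11 libraries was 0.97 between Gabra4 and Gabrd and -0.92 between Gabra4 and Gabra5. In the heterozygous round alone these were 0.94 and -0.56.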

How the data were processed

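Hippocampus RNA-seq of 11 mice was analysed, 1 library per mouse. The authors deposited raw gene counts, obtained with STAR 2.7.2 (alignment to mm9) and featureCounts and not normalized. Each table holds 27 gene symbols turned into dates, with 0.300% to 0.372% of the counts, and the number of unused value columns was 0. At 20667122 to 36145161 counts per library, the spread between mice rather than counting error limits the comparisons. The labels point each round to the table that holds the other, so columns were matched to samples by library name. Groups came from the genotype labels, and sex-linked genes matched the labelled sex in 11 of 11 libraries. Replicates differed by more than sampling noise (chi-square per gene 5.95 to 78.5 over 11 pairs) and were kept apart.

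Counts were fitted by the quasi-likelihood method of edgeR 4.0.16 (R 4.3.3) with TMM factors, over genes reaching 1 CPM in 1 or more libraries, and p-values were adjusted over all of them by Benjamini-Hochberg (threshold 0.05). The standard error of a log2 fold change is its size over the root of its F value. Lengths, positions and sequences came from mm9 with its GENCODE annotation. The code was tested on simulated counts. Alternatives were upper-quartile or RLE factors, filterByExpr or no filter, edgeR's likelihood ratio test, DESeq2 1.42.0, all 11 libraries fitted together, a term for sex, and omission of single libraries. Named were all 7 members, Scn1a, other subunit genes (some of which are not reported here), and at most the 2 genes with the smallest p of each other list. The members and lists were chosen with earlier results of these data known. P7 libraries were not analysed here.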

Additional observations from a re-analysis of the deposited data

Results flagged for a closer look

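For 5 members the change in 1b-/- differed from that in 1b+/- in the model over all 11 libraries, beside 27.3% of 14905 genes tested. On the log2 scale the change in 1b-/- minus that in 1b+/- was 2.22 for Gabra5, 0.98 for Gabrb1 and 0.84 for Gabra2, where 1b-/- was the higher, and -2.37 for Gabrd and -0.97 for Gabra4, where it was the lower. All 5 rest on the 2 homozygous-round WT libraries, which carry striatal markers above the level of the other 9 libraries, and the part of these markers was not tested. They also rest on 1 spread shared by the 2 rounds. Only 1b+/- has 4 libraries, and in it none was flagged as far from the others for any of the 7 members or Scn1a. The groups of 2 and 3 libraries were not examined in this way. Even so, 1b+/- replicate 4 had the highest Gabrd and Scn1a levels of its group. These were 27.8 CPM against 16.9 to 20.05 CPM for Gabrd and 119 CPM against 83.4 to 96.7 CPM for Scn1a.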

How the results depend on the processing

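No paired analysis was possible because the labels give the groups no shared replicate numbers. In the heterozygous comparison the 0 members and 0 genes called became 1 and 44 with no filter, 1 and 191 by the likelihood ratio test, 1 and 245 by DESeq2, and 0 to 2 members and 0 to 421 genes with 1 library left out, the most without WT replicate 1. In the homozygous comparison 2 members and 531 genes became 4 and 1029, 5 and 1829, and 6 and 2144 under the same 3 settings, 7 and 5541 in 1 fit of all 11 libraries, 0 to 3 members and 0 to 693 genes with 1 library left out, and 6 and 8541 against the heterozygous-round WT libraries, an alternative chosen after the data were seen. Against these, Gabra2 reversed to -0.99 and Gabrb1 to -1.20. Of the members not called in the homozygous comparison Gabrd was called in the same direction under 7 of the 13 alternatives, Gabra2 under 4, Gabrb1 and Gabrg1 under 3 and Gabrb2 under 2. The 13 include fits with a lone library in a group. A term for sex is not separate from omission of 1b-/- replicate 1, the only male of that round. The 5 members called for a difference between genotypes were called under each of the 18 alternatives, and Gabrb2 or Gabrg1 joined them in 3 and 2 of these. Each of these fits also shares 1 spread between the rounds, and some leave a lone library in a group.

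In the heterozygous comparison Gabra4 reversed to 0.013 without 1b+/- replicate 2 and 0.11 without WT replicate 1 (range with 1 library left out -0.13 to 0.11), Gabrb2 to 0.0025 and 0.046 without the same libraries (-0.066 to 0.046), and Gabrb1 to 0.020 with a term for sex or without 1b+/- replicate 4 (-0.063 to 0.020). Of 119 share values under other lengths, denominators or left-out libraries, 7 reversed, all in the heterozygous round: Gabrb1 to -0.0393 percentage points without 1b+/- replicate 2, Gabra4 to -0.583, -0.311 and -0.770 and Gabrb2 to -0.00107 and -0.269 without 1b+/- replicate 4, WT replicate 2 (Gabra4 alone) and WT replicate 3, and Gabrd to 0.123 without WT replicate 1. Their ranges were -0.0393 to 0.387 for Gabrb1, -0.770 to 1.49 for Gabra4, -0.269 to 1.18 for Gabrb2 and -0.902 to 0.123 for Gabrd. The cause of these changes was not tested. Each member had at least 233 counts in every library.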

Other observations

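Other cell type lists differed between the groups in ways not yet described. Of 8 oligodendrocyte markers none passed in 1b+/- (edgeR quasi-likelihood test). At an unadjusted p under 0.05 there were 3, all higher, beside 11.3% of all genes. Without WT replicate 1 of that round 7 were called higher, beside 2.89% of all genes called in either direction. That WT library also had the highest Gabrd, Gabra4 and Gabrb2 levels of its round. In the homozygous comparison all 8 were lower in 1b-/- and none passed (3 at an unadjusted p under 0.05, beside 26.4% of all genes). Against the heterozygous-round WT libraries 3 were called higher, where 58.4% of all genes were called in either direction. The summed level of the 8 was 22673 and 16439 CPM in these WT libraries, 11699 and 13527 CPM in 1b-/- and 6340 to 10667 CPM in the heterozygous round.

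Choroid plexus markers varied between libraries of the same group, with a summed level of 59.2 and 13271 CPM in the 2 1b-/- libraries and 52.0 and 3375 CPM in the WT libraries of that round.

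Of 8 astrocyte markers none passed in either comparison (edgeR quasi-likelihood test). At an unadjusted p under 0.05 there were 1 and 2, beside 11.3% and 26.4% of all genes. Gfap stood at 662 CPM in 1b-/- and 182 CPM in WT (1.86 ± 0.323 on the log2 scale, edgeR adjusted p = 0.0504), and at 0.90 against the heterozygous-round WT libraries (edgeR adjusted p = 0.00262). Of 8 markers of septum and basal forebrain 4 were called lower in 1b-/- within the round, beside 1.52% of all genes. Among them was Chat, the acetylcholine-making enzyme also found in striatal interneurons, at 0.152 CPM in 1b-/- and 20.6 CPM in WT. Against the heterozygous-round WT libraries the median change of the 6 tested was -0.31, and Chat was at -1.43 and not called (edgeR adjusted p = 0.452). Nnt, which differs between C57BL/6 substrains, was at 36.6 CPM in 1b-/- and 37.2 CPM in WT of the homozygous round and at 36.2 CPM in 1b+/- and 34.2 CPM in WT of the heterozygous round.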
